A study of Mus musculus with 4 samples.

Results

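The Ccdc genes are the mouse genes whose symbol is Ccdc, a number and at most 1 letter, a name given to proteins with a predicted coiled coil. By that rule 142 of the 24388 gene symbols in the table are Ccdc genes. Membership rests on the symbol alone, so the genes share a structural feature of their proteins and not a function. Of the 142, 25 are known to act in cilia or in the sperm flagellum, and the other 117 are not on those lists. Their RNA was measured by sequencing of poly(A) RNA in spermatocyte suspensions from C57BL/6 mice, with 2 libraries labelled control and 2 labelled Np95 knock out. Np95 is the protein of the gene Uhrf1, which directs maintenance DNA methylation to newly replicated DNA. The age label is 21 dpc for all 4 libraries and is not spelled out. The column names of the table mark the knockout as conditional (cKO), and neither the labels nor the table name a Cre driver or say what allele the controls carry. Nothing says that the 2 replicates of a group came from separate animals, and every p-value reflects only the variation among these 4 libraries, some of which may be technical.

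A motile cilium and a sperm tail share the axoneme, a ring of doublet microtubules around a central pair. Dynein arms slide the doublets, docking complexes hold the outer arms in place, a ruler made of Ccdc39 and Ccdc40 sets the repeat along the doublet, and nexin links join neighbouring doublets. Basal bodies, which derive from centrioles, nucleate the axoneme. In the mouse testis the tail is built in spermatids, after meiosis, and many of its genes are transcribed before that, in pachytene spermatocytes. Meiotic prophase uses other coiled-coil proteins, among them Ccdc36 (Iho1), which is needed for the double-strand breaks of recombination, and Ccdc155 (Kash5), which couples telomeres to dynein at the nuclear envelope.

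The steps between low values correspond to about 5818000 and 12800000 read pairs for the first and second control library, and 11110000 and 4818000 for the first and second knockout library. Uhrf1 itself was at 3.11 and 3.29 RPKM in the controls and at 1.87 and 1.48 in the knockout (1.91-fold lower, limma adjusted p = 0.0031). Sycp3, which encodes a core protein of the synaptonemal complex and defines spermatocytes, was at 27.1 and 26.9 RPKM in the controls and at 30 and 26.6 in the knockout, so spermatocyte RNA was present in each library. No sorting step is described, and all 13 tested Sertoli cell markers of the 14 listed were higher in the knockout. Their summed RPKM was 93.4 and 112 in the controls and 302 and 388 in the knockout. All 4 tested spermatogonial markers of 8 and 5 of 6 tested Leydig cell markers of 7 were also higher, while none of the 5 endothelial markers reached the filter. The Sertoli cell markers Wt1 and Gata4, the spermatogonial marker Dmrt1 and the Leydig cell marker Cyp11a1 reached the filter only through the knockout. These genes thus had to differ between the groups to be tested. Of the 10 spermatocyte markers 3 were higher, 4 lower and 3 not called. Over all tested genes 43.3% were higher and 30.5% lower. RPKM was scaled by the whole gene span, introns included, so a level is compared here between libraries for 1 gene, and between genes only after rescaling to the summed exon length (RPKM per exonic kilobase).

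Of the 142 Ccdc genes, 76 reached 1 RPKM in at least 2 of the 4 libraries and were tested, and 46 of these were lower in the knockout, 9 were higher and 21 were not called. Over all 9099 tested genes, 30.5% were called lower and 43.3% higher by limma at an adjusted p of 0.05. The median log2 fold change (knockout minus control, of RPKM + 1) was -0.53 over the tested Ccdc genes and 0.14 over all tested genes. A lower level in bulk RNA can come from fewer cells of a type or from less RNA per cell, and these cannot be told apart here. Scaling the libraries to an equal RPKM sum, which moved the median of all genes to 0.44, gave 37 lower and 21 higher, so 63.8% of the calls were lower in place of 83.6%. The shares of all tested genes called under that scaling are not given here, so these counts have no background beside them. Of the 76 tested genes, 6 reached the filter only through the control libraries (Ccdc144b, Ccdc180, Ccdc53, Ccdc60, Ccdc83 and Ccdc88b) and 3 only through the knockout libraries (Ccdc8, Ccdc25 and Ccdc160), so these 9 had to differ between the groups to be tested. Of the other 67, which include all 20 tested cilium and flagellum genes, 40 were lower and 6 higher, where 33.0% and 35.3% of the 7270 genes chosen in that way were.

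The decrease was found in most of the cilium and flagellum genes. Of these 25, 20 were tested, 17 were lower, 1 was higher and 2 were not called, with a median log2 fold change of -1.11. In RPKM the median ratio of knockout to control was 0.39. Of the other 117, 56 were tested, 29 were lower, 8 were higher and 19 were not called, with a median of -0.28. The summed RPKM of the 25 was 257 and 251 in the controls and 118 and 83.9 in the knockout. That of the other 117 was 392 and 394 in the controls and 265 and 240.1 in the knockout. The summed level thus lay lower in both knockout libraries than in either control library for both sets of genes. The same was so for the sum over all 24388 genes, at 94177 and 96578 in the controls and 72805 and 70135 in the knockout. A lower sum was therefore not particular to the Ccdc genes.

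**Figure D1:**
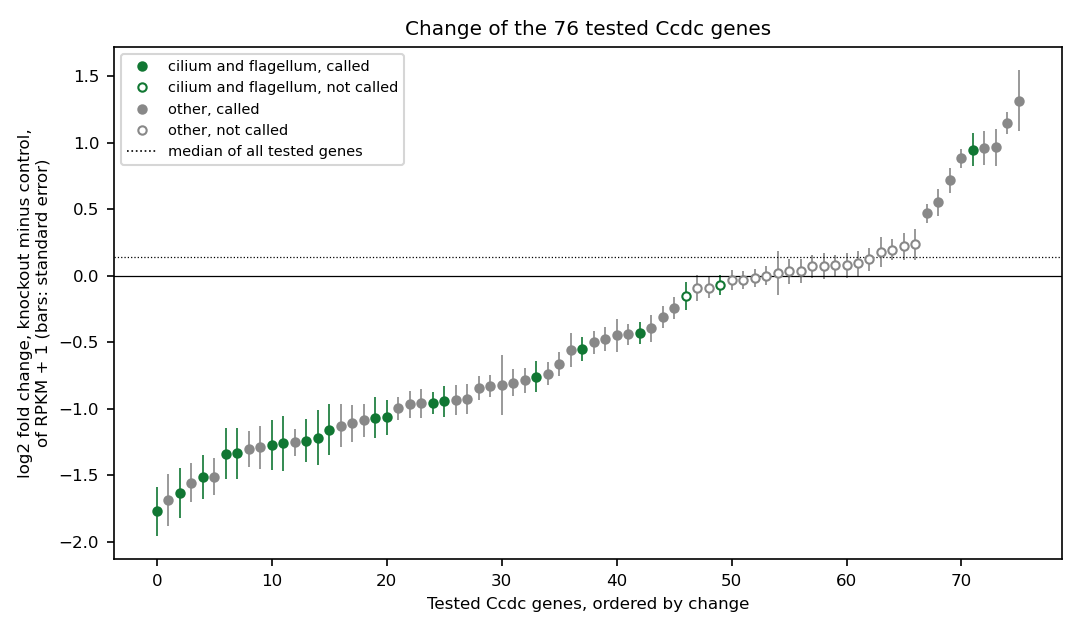
Log2 fold change (knockout minus control, of RPKM + 1) of the 76 tested Ccdc genes in order of change, with bars of 1 standard error, filled points for genes called by limma at an adjusted p of 0.05, and green for cilium and flagellum genes. Of the 20 green points, 17 are filled and below 0 and 1 is filled and above 0, and the dotted line is the median of all tested genes at 0.14.

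The outer dynein arm docking genes were lower wherever they could be tested, in 3 of 3. Ccdc151 (Odad3), a subunit of the docking complex, was at 6.89 and 5.88 RPKM in the controls and at 2.97 and 1.75 in the knockout, a 2.71-fold decrease (log2 fold change -1.16, SE 0.19, limma adjusted p = 0.0042). Ccdc103, which helps attach dynein arms to the doublet, was at 7.81 and 8.92 RPKM in the controls and at 3.95 and 3.04 in the knockout (2.39-fold lower, adjusted p = 0.0019). Ccdc114 (Odad1), the partner of Ccdc151 in the docking complex, was at 1.85 and 1.92 RPKM in the controls and at 1.10 and 0.84 in the knockout (1.94-fold lower, adjusted p = 0.0039). For these 3 genes both control values lay above both knockout values. Such separation was not counted over all tested genes, so here and below it describes only the genes named. Ccdc63, a relative of Ccdc114, was below the filter at 0.14 and 0.092 RPKM in the controls and 0.073 and 0.069 in the knockout, from 9.98 to 35.4 read pairs.

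The ruler and nexin link genes were lower in 5 of 5. Ccdc39 was at 12.4 and 11.8 RPKM in the controls and at 5.91 and 3.58 in the knockout (2.54-fold lower, log2 fold change -1.22, SE 0.20, limma adjusted p = 0.0043). Ccdc40, the other subunit of the ruler, was at 4.58 and 4.25 RPKM in the controls and at 1.99 and 1.23 in the knockout (2.74-fold lower, adjusted p = 0.0027). The difference between these partners was not tested. The 95% interval of the log2 fold change ran from -1.74 to -0.69 for Ccdc39 and from -1.46 to -0.67 for Ccdc40. Ccdc65 (Drc2), a core subunit of the nexin-dynein regulatory complex, was at 11.6 and 11.5 RPKM in the controls and at 5.29 and 3.32 in the knockout (2.69-fold lower, adjusted p = 0.0030). Ccdc113 was at 8.52 and 7.34 RPKM in the controls and at 2.61 and 1.70 in the knockout, the largest decrease of the 5 at 3.68-fold (adjusted p = 0.0015). Ccdc96, which forms a complex with Ccdc113 in the axoneme, was at 42.3 and 39.4 RPKM in the controls and at 18.8 and 12.9 in the knockout (2.58-fold lower, adjusted p = 0.0026). In each of the 5 the groups did not overlap and knockout replicate 2 was the lowest library.

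The other axonemal genes were also lower in 5 of 5. Ccdc189 (Cfap119), a sperm flagellum protein, was at 70.6 and 72.8 RPKM in the controls and at 26.9 and 18.7 in the knockout (3.15-fold lower, log2 fold change -1.63, SE 0.19, limma adjusted p = 0.0017). Ccdc181, a microtubule-binding protein of the flagellum, was at 30.1 and 29.0 RPKM in the controls and at 14.7 and 9.43 in the knockout (2.45-fold lower, adjusted p = 0.0040). Ccdc108 (Cfap65), needed for the sperm flagellum, was at 15.0 and 13.0 RPKM in the controls and at 6.30 and 4.52 in the knockout (2.59-fold lower, adjusted p = 0.0021). The remaining pair lie inside the doublet microtubules. Ccdc105 (Tektl1), a tektin-like protein, was at 4.29 and 3.82 RPKM in the controls and at 1.63 and 1.57 in the knockout (2.53-fold lower, adjusted p = 0.0014). Ccdc173 (Cfap210), a microtubule inner protein, was at 2.82 and 2.53 RPKM in the controls and at 1.38 and 0.97 in the knockout (2.27-fold lower, adjusted p = 0.0032). All control values lay above all knockout values in these 5 genes.

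The genes of the sperm tail and of the manchette, the microtubule skirt that shapes the spermatid head, were lower in 3 of 4. Ccdc38 was at 12.3 and 11.7 RPKM in the controls and at 3.56 and 2.17 in the knockout, the largest decrease of the tested cilium and flagellum genes at 4.17-fold (log2 fold change -1.77, SE 0.18, limma adjusted p = 0.0015). Ccdc42, a manchette and head-to-tail coupling protein that binds Ccdc38, was at 8.78 and 9.13 RPKM in the controls and at 3.77 and 2.26 in the knockout (2.97-fold lower, adjusted p = 0.0027). Ccdc34, which is needed for the flagellum, was at 3.93 and 3.90 RPKM in the controls and at 2.84 and 2.47 in the knockout (1.47-fold lower, adjusted p = 0.0075). The call for Ccdc34 ended once all libraries had the same RPKM sum (adjusted p = 0.283) and without control replicate 1 (adjusted p = 0.052). An antisense gene, Ccdc34os, overlaps this locus, and without strand in the library their reads cannot be told apart. Ccdc34os was at 3.57 and 3.65 RPKM in the controls and at 2.76 and 2.38 in the knockout. Ccdc172, a sperm tail protein known to bind the tektin Tekt2, was at 1.17 and 1.22 RPKM in the controls and at 1.02 and 1.17 in the knockout, and was not called (log2 fold change -0.07, 95% interval -0.26 to 0.12, adjusted p = 0.44). It was called lower after 2 of the other scalings, an equal median (adjusted p = 0.042) and quantile normalization (adjusted p = 0.011).

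The basal body and ciliogenesis genes did not move together. Ccdc13, a centriolar satellite protein needed for ciliogenesis, was at 4.11 and 3.99 RPKM in the controls and at 1.89 and 1.38 in the knockout (2.47-fold lower, log2 fold change -0.94, SE 0.11, limma adjusted p = 0.0018). Ccdc28b, a modifier of Bardet-Biedl syndrome that acts on primary cilium length, was at 2.88 and 3.804 RPKM in the controls and at 7.31 and 7.33 in the knockout (2.19-fold higher, log2 fold change 0.95, SE 0.12, adjusted p = 0.0021). It was the 1 cilium and flagellum gene called higher. Ccdc66, which binds microtubules at centrosomes and cilia, was at 2.57 and 2.36 RPKM in the controls and at 2.39 and 1.87 in the knockout, with overlapping groups and no call (log2 fold change -0.15, 95% interval -0.43 to 0.12, adjusted p = 0.25). Ccdc66 was called lower with an equal median (adjusted p = 0.044), with quantile normalization (adjusted p = 0.042) and without knockout replicate 1 (adjusted p = 0.044).

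**Figure D2:**
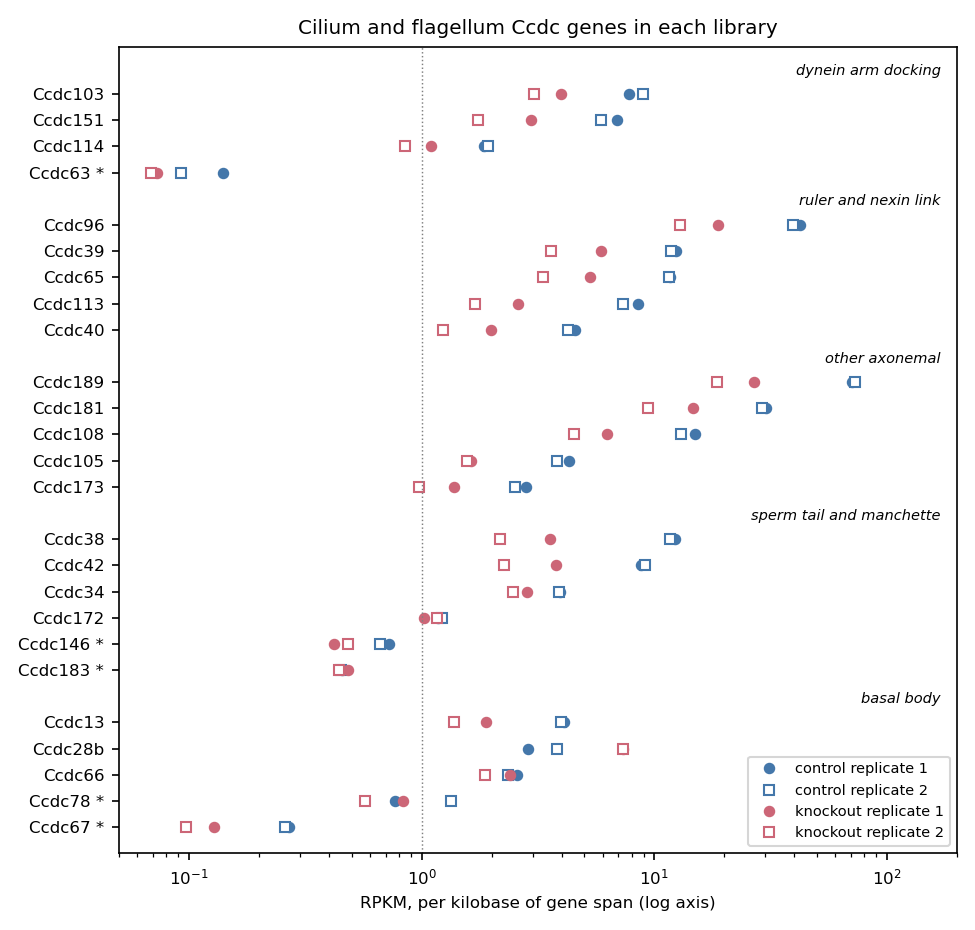
RPKM per kilobase of gene span (log axis) of the 25 cilium and flagellum Ccdc genes in each library, grouped by role, with controls in blue, knockouts in red, replicate 1 as filled circles and replicate 2 as open squares; the dotted line marks 1 RPKM and an asterisk a gene below the filter. The red points lie to the left of the blue points for the genes called lower, such as Ccdc38 with 12.3 and 11.7 against 3.56 and 2.17, and to the right for Ccdc28b; the 2 knockout points of Ccdc28b coincide.

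Knockout replicate 2 was below knockout replicate 1 in 18 of the 20 tested cilium and flagellum genes, with a median ratio of 0.70. The same held for 55 of the 76 tested Ccdc genes and for 48.0% of all tested genes. Between knockout replicates 1 and 2, summed Sertoli cell markers were at 2.93 and 3.77 times the control mean and spermatogonial markers at 2.48 and 2.61 times. Leydig cell markers were at 3.22 and 2.77 times and macrophage markers at 2.66 and 1.98 times, so the order of these libraries differed between cell types. The part of the other cell types in the lower Ccdc levels was not tested. Without knockout replicate 2, 44 Ccdc genes were lower and 9 higher, and 17 cilium and flagellum genes were lower. Without knockout replicate 1, 47 were lower and 11 higher, and 18 cilium and flagellum genes were lower. The counts without either knockout library were thus close to those with both.

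**Figure D3:**
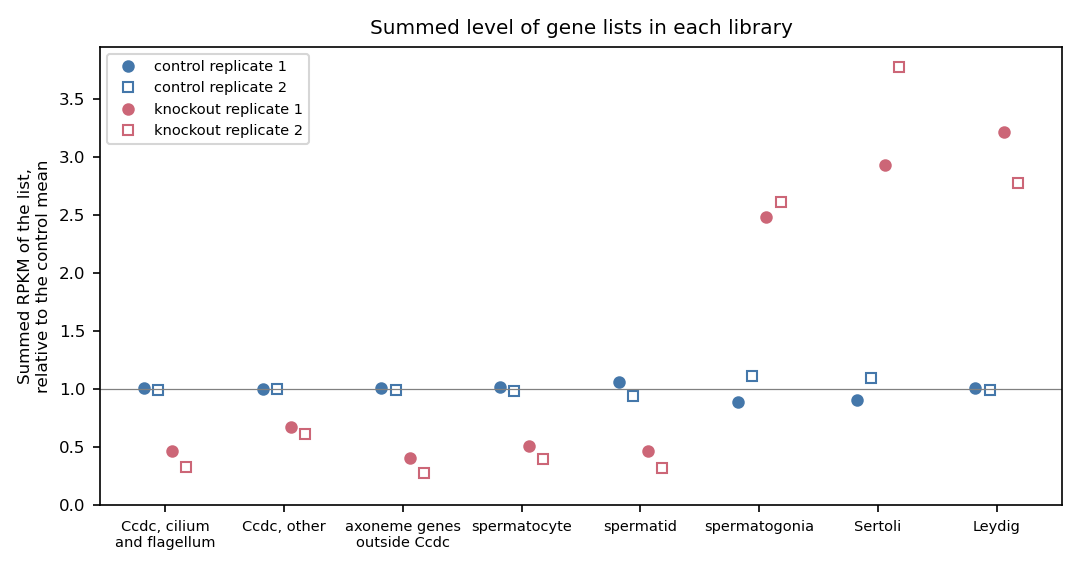
Summed RPKM of each gene list in each library, relative to the mean of the 2 control libraries, for the cilium and flagellum Ccdc genes, the other Ccdc genes, axoneme genes outside the Ccdc genes and markers of 5 cell types, with controls in blue and knockouts in red. The cilium and flagellum Ccdc genes are at 0.47 and 0.33 in the knockout libraries, the spermatocyte markers at 0.51 and 0.40, the spermatid markers, of which 2 of 10 reached the filter, at 0.46 and 0.32, and the Sertoli cell markers at 2.93 and 3.77. The spermatocyte sum, 935 and 898 RPKM in the controls, held Ybx2 at 432 and 404 and Ldhc at 217 and 210. Over the 10 spermatocyte markers the median ratio of knockout to control was 0.95.

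Rescaled to exon length, the cilium and flagellum genes can be ranked by level, as far as the gene spans used match those of the authors. These spans came from build GRCm38, while the authors aligned to mm9. The rescaling is large for Ccdc34, with a span of 158 kb and 2.07 kb of exons. In the controls Ccdc34 had the highest mean at 299 RPKM per exonic kilobase, with the reservation about its antisense neighbour. Ccdc181 at 189.6, Ccdc189 at 178, Ccdc113 at 153 and Ccdc38 at 131 followed. In the knockout the same 4 genes were at 77.3, 56.5, 41.5 and 31.5 RPKM per exonic kilobase. The means of Ccdc181 and Ccdc189 are close, at 189.6 ± 4.9 and 178 ± 3.9 (SD, n = 2). Ccdc63, at 1.52, was the lowest of the 25 in the controls.

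Genes of the axoneme and sperm tail that carry other names showed the same direction. Of 65 such genes with a row, 41 were tested, 39 were lower, 0 were higher and 2 were not called by limma, against 30.5% lower over all tested genes. At an unadjusted p under 0.05, 39 were lower and 0 higher. Their median log2 fold change was -1.11, and knockout replicate 2 was below knockout replicate 1 in 40 of the 41. Of the 41, 8 reached the filter only through the control libraries, and of the other 33, 31 were lower. Partners of the Ccdc proteins described above were on the list. Dnaic2, one of the 8, an intermediate chain of the outer dynein arm, was at 1.47 and 1.45 RPKM in the controls and at 0.34 and 0.20 in the knockout (5.35-fold lower, limma adjusted p = 0.0014). Lrrc48 (Drc3) and Iqcd (Drc10), which sit in the nexin link with Ccdc65, were 2.60-fold and 2.85-fold lower (adjusted p = 0.0018 and 0.0020). Tekt2, the tektin that Ccdc172 binds, was at 23.8 and 23.5 RPKM in the controls and at 7.64 and 4.85 in the knockout (3.79-fold lower, adjusted p = 0.0016).

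Rows that were once named Ccdc and now have another symbol were tested in the same fit. There were 43 such rows, 29 were tested, 15 were lower and 6 were higher, against 30.5% and 43.3% of all tested genes. Drc1 reached the filter only through the controls, and Cwc25, Nsrp1, Primpol and Sgf29 only through the knockout. Of the other 24, 14 were lower and 2 higher, where 33.0% and 35.3% of all genes chosen in that way were. Among the 7 tested of the 10 on the cilium lists, 6 were lower and 0 higher by limma, and 0 were higher at an unadjusted p under 0.05. Drc1 (formerly Ccdc164), the partner of Ccdc65, which reached the filter only through the controls, was at 1.46 and 1.62 RPKM in the controls and at 0.65 and 0.44 in the knockout (2.83-fold lower). Cfap45 (formerly Ccdc19), a microtubule inner protein, was at 4.79 and 4.35 RPKM in the controls and at 1.67 and 1.21 in the knockout (3.17-fold lower). The direction of the cilium and flagellum genes was thus the same for the 6 called rows that the symbol rule leaves out.

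The 2 meiotic Ccdc genes moved in opposite directions. Ccdc155 (Kash5) was at 8.15 and 8.45 RPKM in the controls and at 6.05 and 4.67 in the knockout (1.55-fold lower, log2 fold change -0.56, SE 0.13, limma adjusted p = 0.012). Scaling to an equal RPKM sum ended its call (adjusted p = 0.18), as did leaving out control replicate 2 (adjusted p = 0.058). Ccdc36 (Iho1) was at 1.96 and 1.78 RPKM in the controls and at 3.46 and 3.99 in the knockout (1.99-fold higher, log2 fold change 0.72, SE 0.09, adjusted p = 0.0020). Both genes had groups that did not overlap.

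Among the remaining Ccdc genes, the 8 decreases described next are the largest on the log2(RPKM + 1) scale, which favours genes of high level. Ccdc89 was at 56.2 and 58.9 RPKM in the controls and at 21.0 and 14.1 in the knockout (3.28-fold lower, log2 fold change -1.68, SE 0.20, limma adjusted p = 0.0017). Ccdc24 was at 23.0 and 23.5 RPKM in the controls and at 8.40 and 6.25 in the knockout (3.18-fold lower, adjusted p = 0.0014). Ccdc110, known as a cancer and testis antigen, was at 7.95 and 7.11 RPKM in the controls and at 2.37 and 1.65 in the knockout (3.74-fold lower, adjusted p = 0.0014). Ccdc30 was at 4.197 and 4.11 RPKM in the controls and at 1.37 and 0.84 in the knockout (3.75-fold lower, adjusted p = 0.0015). The next pair act in the acrosome, the secretory cap of the sperm head. Ccdc87 was at 21.8 and 19.8 RPKM in the controls and at 9.31 and 6.71 in the knockout (2.60-fold lower, adjusted p = 0.0020). Ccdc136 was at 27.2 and 25.2 RPKM in the controls and at 13.1 and 10.3 in the knockout (2.24-fold lower, adjusted p = 0.0020). Ccdc74a and Ccdc116 completed the 8, at 2.59-fold and 2.99-fold lower (adjusted p = 0.0014 and 0.0027). The 8 were taken from called genes whose groups did not overlap, so in each the controls had to lie above the knockouts. By the ratio of mean RPKM the largest decrease of any tested Ccdc gene was that of Ccdc83, which was named after its values were seen. It was at 1.77 and 1.76 RPKM in the controls and at 0.47 and 0.31 in the knockout (4.54-fold lower, adjusted p = 0.0014), and it is one of the 6 genes tested through the controls alone.

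The 8 other Ccdc genes called higher were at most at 3.58 RPKM in any control library. Ccdc8, a subunit of the 3M complex with Cul7 and Obsl1, was at 0.79 and 0.31 RPKM in the controls and at 2.18 and 3.55 in the knockout, the largest increase at 5.21-fold (log2 fold change 1.31, SE 0.23, limma adjusted p = 0.0048). It rests on 16.7 and 14.2 read pairs in the control libraries, and, like Ccdc25 and Ccdc160 below, it was tested only because of its level in the knockout. Ccdc85b was at 1.29 and 1.13 RPKM in the controls and at 3.73 and 4.04 in the knockout (3.21-fold higher, adjusted p = 0.0014). Ccdc25, a membrane protein known to sense extracellular DNA, was at 0.72 and 0.76 RPKM in the controls and at 2.11 and 2.30 in the knockout (2.98-fold higher, adjusted p = 0.0014). Ccdc160, on the X chromosome, was at 0.76 and 0.80 RPKM in the controls and at 2.08 and 2.90 in the knockout (3.19-fold higher, adjusted p = 0.0022). Ccdc71l was at 2.82 and 3.23 RPKM in the controls and at 5.97 and 7.82 in the knockout (2.28-fold higher, adjusted p = 0.0027). The smallest increases were in Ccdc167, at 1.53-fold (adjusted p = 0.0033), and in Ccdc59, at 1.61-fold (adjusted p = 0.0058). The Sertoli cell and spermatogonial markers moved in the direction of these genes, and their part in the increases was not tested.

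The counts of genes with roles outside cilia and meiosis are small, and are to be read against 30.5% lower and 43.3% higher over all tested genes. Of the 11 nuclear and RNA-processing Ccdc genes 9 were tested, 3 were lower, 1 was higher and 5 were not called, with a median log2 fold change of 0.07, so the share that was lower is near that of all genes. Ccdc130, a homologue of a splicing factor, was at 4.60 and 4.99 RPKM in the controls and at 2.33 and 2.19 in the knockout (2.12-fold lower, limma adjusted p = 0.0014). Of the 12 membrane traffic genes 5 were tested, 2 were lower and 3 were not called. The 2 lower ones, Ccdc53 and Ccdc88b, both reached the filter only through the controls and so had to differ to be tested. Ccdc53 (Washc3), a subunit of the WASH complex on endosomes, which reached the filter only through the controls, was at 1.58 and 1.60 RPKM in the controls and at 0.99 and 0.84 in the knockout (1.75-fold lower, adjusted p = 0.0048), a call that an equal RPKM sum ended (adjusted p = 0.059). Of the 10 centrosome and spindle genes 4 were tested, and 1 was lower and 1, Ccdc8, higher. Ccdc77, the lower one, was at 1.60 and 1.52 RPKM in the controls and at 1.17 and 0.96 in the knockout (1.46-fold lower, adjusted p = 0.020). This call was lost after scaling to an equal RPKM sum (adjusted p = 0.45), without control replicate 1 (adjusted p = 0.14) and without control replicate 2 (adjusted p = 0.10). The 1 tested secreted protein, Ccdc134, was 1.94-fold lower (adjusted p = 0.0017), and of the 2 tested mitochondrial genes 0 were called (0 at an unadjusted p under 0.05).

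Close relatives were not always called alike. Ccdc88b was at 2.50 and 2.57 RPKM in the controls and at 0.97 and 0.67 in the knockout (3.11-fold lower, limma adjusted p = 0.0015), and it reached the filter only through the controls. Its relative Ccdc88c (Daple), a regulator of Wnt signalling, was at 1.05 and 0.98 RPKM in the controls and at 0.92 and 1.01 in the knockout (log2 fold change -0.03, 95% interval -0.22 to 0.15, adjusted p = 0.70). It was called lower with quantile normalization (adjusted p = 0.013). Ccdc71 was at 7.01 and 6.75 RPKM in the controls and at 7.47 and 9.15 in the knockout and was not called (log2 fold change 0.24, 95% interval -0.06 to 0.53, adjusted p = 0.12), beside the higher Ccdc71l. Ccdc71 was called higher once the RPKM sums were made equal (adjusted p = 0.0076) and without knockout replicate 1 (adjusted p = 0.016). The differences between these relatives were not themselves tested.

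The 66 Ccdc genes below the filter were longer, with a median gene span of 56.7 kb against 14.6 kb for the tested genes. Dividing by the span puts long genes under 1 RPKM, and 28 of the 66 had a mean of at least 100 read pairs. Ccdc185 was listed at 0 in all 4 libraries. Per exonic kilobase, a scale chosen after seeing the data, 121 Ccdc genes were tested, 53 were lower and 31 higher, where 25.1% of the 14262 genes tested on that scale were lower and 50.5% were higher. Of the 45 genes this added, 7 were lower, 22 were higher and 16 were not called. Some of these reached this filter through a single group, such as Ccdc7a through the controls and Ccdc120 and Ccdc149 through the knockout. Those had to differ between the groups to be tested. All 25 cilium and flagellum genes could then be tested, and 19 were lower and 1 higher.

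The 7 added decreases include 2 genes on the cilium and flagellum lists. Ccdc146, a centriole and manchette protein needed for the sperm flagellum, was at 0.73 and 0.66 RPKM in the controls and at 0.42 and 0.48 in the knockout (exonic log2 fold change -0.59, limma adjusted p = 0.0024). Ccdc67 (Deup1), which builds the deuterosomes that multiply centrioles in multiciliated cells, was at 0.27 and 0.26 RPKM in the controls and at 0.13 and 0.098 in the knockout (exonic log2 fold change -0.96, adjusted p = 0.0017). Ccdc63, Ccdc78 and Ccdc183 of the same lists were not called. The largest added decreases were in Ccdc7b (exonic log2 fold change -1.96, adjusted p = 1.8e-04) and Ccdc178 (-1.81, adjusted p = 5.7e-04). Both were chosen here by size after their values were seen.

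The added increases include centrosomal and X-linked genes. Ccdc57, a centrosome and microtubule protein, was at 0.24 and 0.22 RPKM in the controls and at 0.70 and 0.998 in the knockout (exonic log2 fold change 1.74, limma adjusted p = 2.3e-04). Ccdc6, known as a fusion partner of the RET kinase, was at 0.10 and 0.13 RPKM in the controls and at 0.45 and 0.61 in the knockout (exonic log2 fold change 1.77, adjusted p = 2.6e-04). Both were likewise chosen by size after their values were seen. On the X chromosome Ccdc120 was at 0.14 and 0.18 RPKM in the controls and at 0.73 and 0.92 in the knockout (exonic log2 fold change 1.15, adjusted p = 7.0e-04). Ccdc22, the other X-linked one, was at 0.29 and 0.36 RPKM in the controls and at 0.79 and 0.71 in the knockout (0.86, adjusted p = 0.0025). With Ccdc160, the 3 X-linked Ccdc genes were thus all higher on this scale, but Ccdc120 reached its filter only through the knockout. At a mean of 0.43 RPKM per exonic kilobase in the controls, Ccdc120 had to differ between the groups to be tested. Of the 10 centrosome and spindle Ccdc genes, 7 were higher and 1 lower per exonic kilobase. These counts are small beside a background in which 50.5% of all genes tested on this scale were higher. Of the 7 higher centrosome and spindle genes, Ccdc8, Ccdc68 and Ccdc120 reached the filter on this scale only through the knockout.

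**Figure D4:**
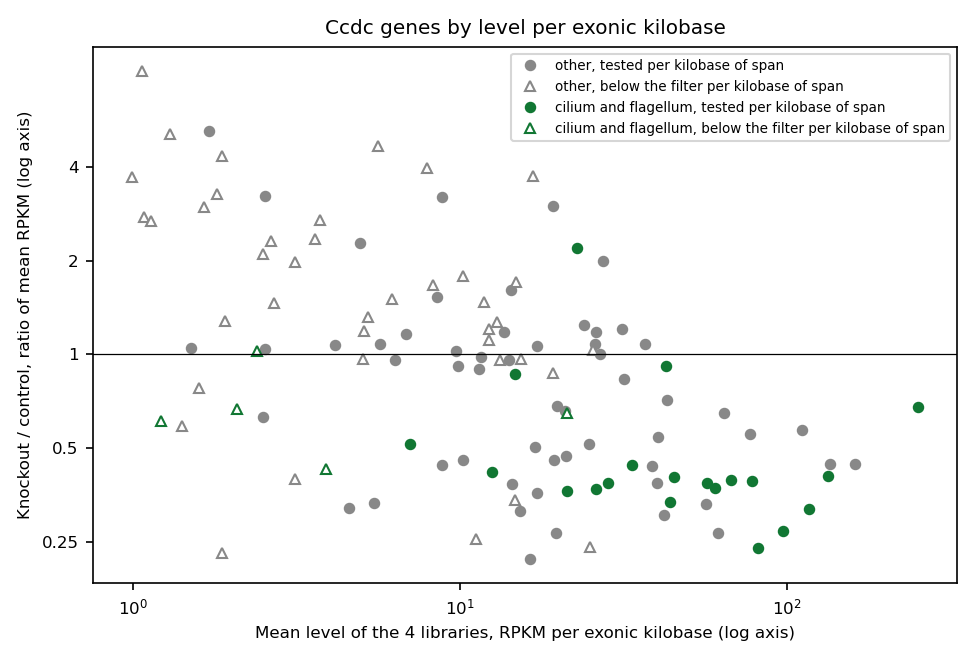
Ratio of mean RPKM (knockout over control, log axis) against the mean level of the 4 libraries in RPKM per exonic kilobase (log axis) for the 121 Ccdc genes tested on that scale; circles passed the filter per kilobase of span, open triangles did not, and green marks cilium and flagellum genes. Of the 25 green points, 19 were called lower and 1 higher. Most open triangles lie above a ratio of 1, with 22 of the 45 called higher, where 50.5% of all genes tested on that scale were. Some triangles reached the filter on that scale through a single group, such as Ccdc149 through the knockout and Ccdc7a through the controls.

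Direction went with level among the Ccdc genes as it did among all genes. Spearman's rho between mean level and log2 fold change was -0.45 over the 76 tested Ccdc genes and -0.29 over the 9099 tested genes, a description across genes that share 4 libraries and the same values on both axes. Of the 28 Ccdc genes with a mean of at least 5 RPKM, 23 (82.1%) were lower, and 47.3% of all genes at that level were. Under 5 RPKM 23 of 48 (47.9%) Ccdc genes were lower, and 22.1% of all genes. The share of Ccdc genes that was lower was above that of all genes at both levels. Those under 5 RPKM include the 6 that reached the filter only through the controls, all called lower, and the 3 that did so only through the knockout. These had to differ between the groups to be tested.

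The promoters of the Ccdc genes were searched for the letters of the X-box, the site bound by RFX factors, which act on many cilium genes, and of the cAMP response element, the site of CREM. The window ran from 250 bases before to 50 bases after the gene start in RefSeq, build GRCm38.p6, for the 114 Ccdc genes with a window, while the authors aligned to mm9. The X-box half-site GTTGCCA was in 14 of the 114 windows (12.3%) on either strand, and in 4.46% of the windows of 27025 genes. Among the windows of genes called lower it was in 7 of 42, and among those called higher in 0 of 7, beside 10 of 66 (15.2%) over all tested Ccdc genes with a window. A longer form, GTTNCC and GGNAAC with 2 bases between them, was in 3 (2.63%), against 0.444% of all windows, and the window of Ccdc175 holds both forms in overlap. The element TGACGTCA was in 3 (2.63%), against 1.88%. A match is a run of letters and no evidence of binding. The 100 bases before the start of 4 genes lower in the knockout are shown because they carry the X-box letters within 40 bases of the start, read 5′ to 3′ along the gene, with the match in capitals. They are chr9:22002635-22002734 for Ccdc151, chr9:121839462-121839561 for Ccdc13, chr10:78753068-78753167 for Ccdc105 and chr5:116288986-116289085 for Ccdc60, all on the minus strand.
Ccdc151: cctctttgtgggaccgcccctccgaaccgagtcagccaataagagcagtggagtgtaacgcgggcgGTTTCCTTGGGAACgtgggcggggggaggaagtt
Ccdc13: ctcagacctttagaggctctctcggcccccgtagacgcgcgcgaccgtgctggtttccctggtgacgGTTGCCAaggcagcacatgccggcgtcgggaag
Ccdc105: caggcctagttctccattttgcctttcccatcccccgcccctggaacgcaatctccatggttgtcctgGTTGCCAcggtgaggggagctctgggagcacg
Ccdc60: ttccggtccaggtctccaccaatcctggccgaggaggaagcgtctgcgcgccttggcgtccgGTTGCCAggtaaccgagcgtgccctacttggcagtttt
Ccdc151 holds the longer form 34 bases before its start, and Ccdc13, Ccdc105 and Ccdc60 hold the half-site 33, 32 and 38 bases before it. Ccdc60, which is on no cilium or flagellum list, was at 2.54 and 2.35 RPKM in the controls and at 0.98 and 0.65 in the knockout (3.01-fold lower, limma adjusted p = 0.0017). It was chosen for its promoter after its values were seen, and it reached the filter only through the controls.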

How the data were processed

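Poly(A) RNA of 2 control and 2 Np95 knock out libraries was read as 50-bp pairs from libraries that do not mark strand, per the labels' protocols. The submitters' processing notes name Bowtie2 and mm9. A counting program and an annotation are not given in those sources. The authors deposited RPKM values, 1 column per library. Multiplied by gene span, 41.4% to 52.3% of low deposited RPKM values per library lay within 0.05 of whole read pairs, against at most 24.5% by exon length, so they were scaled by span. Too few came out whole for a count test.

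From 24444 rows, 27 with a date for a symbol and 29 repeats were left out. Genes with RPKM of at least 1 in at least 2 libraries (9099) were tested on log2(RPKM + 1), which understates the change of low genes, by limma 3.58.1 with a trend (R 4.3.3), two-sided, Benjamini-Hochberg adjusted over all of them, at 0.05. Folds divide 1 group's mean RPKM by the other's. With 2 libraries a side, the smallest exact permutation p is 0.333. The fit was tested on simulated data. Groups came from sample titles. Exon lengths came from GENCODE and promoter sequences from RefSeq. Genes, all 142 of which matched the RefSeq table (10 by an older symbol), and lists were chosen with earlier results of these data known. Named are the tested cilium and flagellum genes, the meiotic and X-linked ones, and the 2 called genes with the smallest p per other role. Also named are the 8 largest called changes per direction outside the cilium lists, among genes whose groups did not overlap. So are relatives sharing a number and up to 3 called genes per axoneme list. Genes outside the rule are said to be so where named, or carry the partner, count or former name that led to them. Alternatives were 2 pseudocounts, 2 filters, 3 scalings, no trend, leaving out each library, a replicate block, other membership and exon scaling.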

Additional observations from a re-analysis of the deposited data

How the results depend on the processing

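Over all the alternatives run, no Ccdc gene named by the rule changed direction while called, and limma without the trend and pseudocounts of 0.1 and 0.5 changed none of the counts. Scaling to an equal RPKM sum gave 21 Ccdc genes higher, 20 of them outside the cilium and flagellum lists. A filter at 5 RPKM, which tests fewer genes, gave 26 lower and 3 higher, 11 cilium and flagellum genes lower, 15 other genes lower and 2 higher, and 22 axoneme genes outside the Ccdc genes lower. Without a filter 30 were higher, 29 of them other genes, and per exonic kilobase 31 and 30; both test more genes. With rows formerly named Ccdc 15 were higher, 14 of them other genes. Without the basal body list 0 cilium and flagellum genes were higher, since that list holds Ccdc28b. With each library left out in turn, 40 to 47 Ccdc genes were lower and 9 to 11 higher, and 16 to 18 cilium and flagellum genes were lower. With a replicate block 45 were lower and 9 higher, and 17 cilium and flagellum genes were lower. Except per exonic kilobase, the shares of all genes called under these other fits are not given here. Their counts therefore show only how the Ccdc calls moved. Same-numbered libraries share only a number. Over the 9099 tested genes the difference between the control replicates and that between the knockout replicates had a correlation of 0.11. Depth limits low genes most in knockout replicate 2 and control replicate 1, and the fewest reads behind a tested Ccdc value were the 14.2 read pairs of Ccdc8 in control replicate 2.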

Other observations

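Transcription factors known to act on cilium and spermiogenesis genes were measured in the same libraries. Of the 9 on that list 5 were tested, 4 were lower and 1 was higher, beside 30.5% lower and 43.3% higher over all tested genes. Rfx2, an RFX factor of the testis, was at 4.86 and 4.55 RPKM in the controls and at 3.19 and 2.53 in the knockout (1.64-fold lower, limma adjusted p = 0.0068), a call that scaling to an equal RPKM sum ended (adjusted p = 0.089). Foxj1, a regulator of motile cilia, was at 1.35 and 1.07 RPKM in the controls and at 0.78 and 0.44 in the knockout (log2 fold change -0.47, adjusted p = 0.025), and its call ended under 4 alternatives (adjusted p = 0.063 to 0.13). Crem, the cAMP response factor of spermatids, was at 2.16 and 2.09 RPKM in the controls and at 1.12 and 0.97 in the knockout (2.03-fold lower, adjusted p = 0.0019). Tbpl1 (Trf2), a relative of the TATA-binding protein needed in spermatids, was at 10.4 and 10.5 RPKM in the controls and at 5.15 and 3.84 in the knockout (2.33-fold lower, adjusted p = 0.0019). Mybl1, which acts in pachytene spermatocytes, was at 3.24 and 3.41 RPKM in the controls and at 4.25 and 4.78 in the knockout (1.36-fold higher, adjusted p = 0.016), and its call ended under 4 alternatives (adjusted p = 0.074 to 0.17). Foxj1 was tested only because of its level in the controls. Per exonic kilobase all 9 were tested, 5 were lower and 3 higher, where 25.1% and 50.5% of all genes tested on that scale were. Rfx1, at 0.34 and 0.36 RPKM in the controls and at 1.01 and 0.98 in the knockout, was higher on that scale (exonic log2 fold change 1.23, limma adjusted p = 3.5e-04). Rfx3, at 0.036 and 0.032 RPKM in the controls and at 0.12 and 0.17 in the knockout, was also higher (exonic log2 fold change 1.39, limma adjusted p = 5.8e-04). Rfx3 reached the filter on that scale only through the knockout, so it had to differ between the groups to be tested. Rfx4 was lower (-0.81, adjusted p = 0.0022).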
